A study of Homo sapiens with 6 samples.

Results

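The 10 genes described here are the 4 ID genes ID1, ID2, ID3 and ID4, the inhibitory SMAD genes SMAD6 and SMAD7, the pseudoreceptor gene BAMBI, the ligand genes BMP2 and BMP4 and the modulator gene CRIM1. They were chosen by name, with earlier results of these data known. Each was found as 1 row of a deposited table of 58735 genes. RNA was sequenced from AGS, a human cell line established from a gastric adenocarcinoma, with a wild-type genotype label. One group was transfected with an siRNA named siRBM8A and the other with a control siRNA named siNC, both with a lipid reagent, and RNA was taken 48 h later. Each group held 3 libraries that the labels call biological replicates, all under 1 batch label. The p-values thus set the difference between the groups against the spread between these cultures. The design rests on 1 cell line and on 1 name for the RBM8A siRNA. The comparison asks which transcripts differed between cells that received siRBM8A and cells that received siNC.

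Bone morphogenetic proteins (BMPs) are secreted ligands that bind paired serine/threonine kinase receptors, which phosphorylate SMAD1, SMAD5 and SMAD9. These SMADs enter the nucleus with SMAD4 and activate target genes, among which the ID genes are the best known. ID proteins are helix-loop-helix proteins without a DNA-binding region, and they hold E proteins away from DNA. SMAD6, SMAD7 and BAMBI are themselves induced by the pathway or the related TGF-beta pathway and dampen it, which forms a feedback loop. In the gut, BMP signals restrain proliferation and favour differentiation along the epithelium.

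Each of the 6 libraries held between 14838527 and 16561306 fragments in genes. RBM8A, the target of the siRNA and the gene of the exon junction protein Y14, was at 3.25, 2.23 and 3.38 FPKM in siRBM8A cells (replicates 1, 2 and 3), against 15.3, 13.2 and 14.8 FPKM in siNC cells. FPKM are fragments scaled by the length of the gene's exons and by a divisor for each library. This divisor was from 0.972 (siNC replicate 2) to 1.05 (siRBM8A replicate 1) times the fragments in genes. The siRBM8A level was 20.5% of the siNC level (log2 fold change -1.97, SE 0.142, adjusted p = 0.00544, limma), and its exact two-sided permutation p was 0.1, as small as a design of 3 against 3 can give. The adjusted p of RBM8A was 0.0544 when siRBM8A replicate 3 was left out. Opposite-strand genes cover 25.0% of the RBM8A exon bases. All 6 epithelial markers examined were above 1 FPKM, with a summed level of 1654 to 2302 FPKM in siRBM8A cells and 1681 to 2149 FPKM in siNC cells. Of 8 gastric or intestinal markers 4 were above 1 FPKM, and GKN1 and CDX1 were listed at 0 in every library. That list summed to 96.7 to 123 FPKM in siRBM8A cells and 118 to 145 FPKM in siNC cells, and one of its members, VIL1, was lower in siRBM8A cells (log2 fold change -0.65, adjusted p = 0.0462, limma). The 6 fibroblast markers summed to 3.49 to 4.53 FPKM in siRBM8A cells and 3.48 to 4.68 FPKM in siNC cells, nearly all of it COL1A1, and the 4 endothelial markers stayed under 0.101 FPKM in sum. PTPRC, the defining leukocyte marker, was at 0, and LYZ made up nearly all of the leukocyte sum of 94.1 to 107 FPKM in siRBM8A cells and 129 to 146 FPKM in siNC cells. Whether the lower VIL1 and LYZ have a part in the results below was not tested.

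Of the 10 genes, ID1, ID2 and SMAD6 fell in siRBM8A cells and CRIM1 rose. ID2 was at 49.7% of its siNC level, SMAD6 at 55.2%, ID1 at 66.9% and CRIM1 at 140%. The BMP2, BMP4, SMAD7, ID3 and BAMBI transcripts did not pass the test, and ID4 was listed at 0. A gene was called at an adjusted p under 0.05 in limma on log2(FPKM + 1), and 9 of the 10 genes had the mean of at least 1 FPKM needed for the test. In bulk RNA, fewer cells with a transcript and less of it per cell cannot be told apart. Of the 9 tested genes, 4 were called (44.4%), against 5.59% of the 12678 genes tested (305 higher and 404 lower in siRBM8A cells). When each library's FPKM were made to add up to the same sum, the split over the table was 468 higher and 325 lower. The 3 genes that fell compare with 3.19% of all tested genes called lower, and CRIM1 with 2.41% called higher. The groups did not overlap for 5 of the 9 genes (55.6%), against 31.3% of all tested genes. Because the 10 genes were chosen with earlier results known, these shares describe them and cannot measure an excess. The median log2 fold change was -0.13 over the 9 genes and -0.01 over all tested genes.

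**Figure D1:**
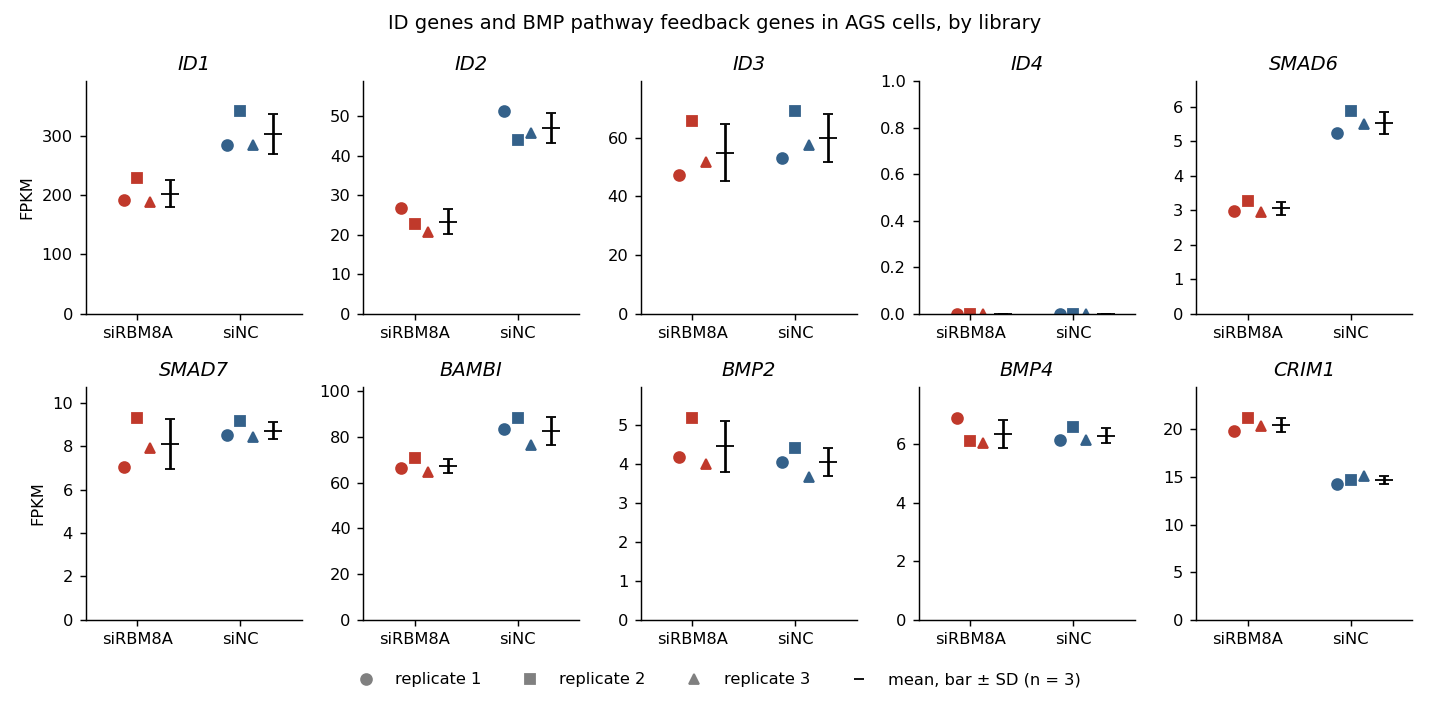
FPKM of the 10 genes in each library, with siRBM8A left of siNC and a linear axis from 0 in each panel; symbols mark the replicate number and the black bars give the mean ± SD (n = 3). The siRBM8A and siNC points are apart for ID1, ID2, SMAD6, BAMBI and CRIM1 and overlap for ID3, SMAD7, BMP2 and BMP4, while ID4 is listed at 0 throughout.

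ID1, a direct target of BMP signals in many cell types, was the most abundant of the 10 transcripts. It was at 191, 228 and 189 FPKM in siRBM8A cells, against 284, 341 and 284 FPKM in siNC cells. The ranges of the groups were apart, and replicate 2 was the highest of each group. The means were 203 ± 22.1 FPKM in siRBM8A cells and 303 ± 33.0 FPKM in siNC cells (SD, n = 3 each), with a log2 fold change of -0.58 (SE 0.124, adjusted p = 0.0464, limma). Only 106 of the 12678 tested genes had a higher mean over all libraries than ID1. ID1 lies on chromosome 20 from 31605283 to 31606515 on the plus strand (GRCh38), with up to 2 exons in a transcript, and 12093 fragments in siRBM8A cells and 18377 in siNC cells stood behind its values.

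ID2, which also binds the retinoblastoma protein, had the lowest fold change of the 9 tested genes. It was at 26.7, 22.6 and 20.6 FPKM in siRBM8A cells, against 51.2, 43.9 and 45.7 FPKM in siNC cells. The highest siRBM8A library was far below the lowest siNC library, and replicate 1 rather than replicate 2 was the highest in each group. The means were 23.3 ± 3.09 FPKM in siRBM8A cells and 46.9 ± 3.81 FPKM in siNC cells, a log2 fold change of -0.98 (SE 0.124, adjusted p = 0.0132, limma). Of all tested genes, 71 had a lower log2 fold change. ID2 lies on chromosome 2 from 8678845 to 8684453 on the plus strand, and the antisense gene ID2-AS1 overlaps 1.72% of its exon bases.

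ID3, another direct BMP target in many cell types, was at 47.1, 65.8 and 51.6 FPKM in siRBM8A cells, against 53.2, 69.0 and 57.6 FPKM in siNC cells. The groups overlapped, with siRBM8A replicate 2 above siNC replicates 1 and 3. The log2 fold change was -0.13 with a 95% interval of -0.51 to 0.24 (adjusted p = 0.640, limma). With a correction for the GC content of the transcripts the log2 fold change of ID3 was -0.21 and its adjusted p 0.0278. ID3 lies on chromosome 1 from 23557918 to 23559794 on the minus strand. ID4, which has a more neural pattern of expression, had 0 fragments in every library, which allows a level of up to 0.0754 to 0.0842 FPKM in siRBM8A cells and 0.0766 to 0.0803 FPKM in siNC cells (3 fragments per library, for counting error only).

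Added together, ID1, ID2 and ID3 stood at 281 ± 31.0 FPKM in siRBM8A cells and 410 ± 38.2 FPKM in siNC cells. The sum was 265, 316 and 261 FPKM in the siRBM8A libraries and 388, 454 and 387 FPKM in the siNC libraries, without overlap. ID1 made up 72.1% to 72.3% of the sum in siRBM8A cells and 73.1% to 75.1% in siNC cells. The ID3 share was 17.8% to 20.8% in siRBM8A cells, against 13.7% to 15.2% in siNC cells, and the ID2 share was 7.14% to 10.1% in siRBM8A cells, against 9.67% to 13.2% in siNC cells. The ratio of ID3 to ID2 was 2.39 ± 0.582 in siRBM8A cells and 1.29 ± 0.268 in siNC cells. These shares compare FPKM, which are per length, and describe the libraries without a test.

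**Figure D2:**
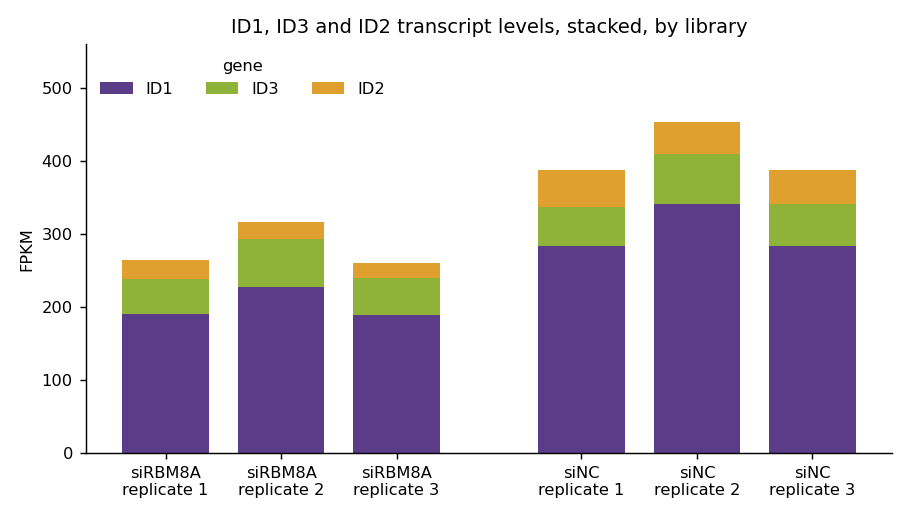
FPKM of ID1, ID3 and ID2 stacked in each library, with the 3 siRBM8A libraries left of the 3 siNC libraries. The stacks reach 261 to 316 FPKM in siRBM8A cells and 387 to 454 FPKM in siNC cells, and ID1 is the largest part of each.

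The promoter windows of the 3 expressed ID genes are shown because 2 of them fell while the other did not pass the test. Each runs from 250 bases before to 50 after the annotated start, is written 5′ to 3′ in the direction of the gene, and comes from RefSeq on GRCh38.p14. Of the 10 genes, 8 had a window in that table. Capitals mark matches on either strand to GGCGCC, the core of GC-rich elements bound by SMAD1 and SMAD5, to CAGAC, a SMAD box, and to TATAAA, the TATA box. GGCGCC was found in 19.2% of all 35116 promoter windows of this length, CAGAC in 45.3% and TATAAA in 11.5%. The ID1 window is chr20:31605039-31605338 (plus strand), that of ID2 is chr2:8681806-8682105 (plus strand) and that of ID3 is chr1:23559452-23559751 (minus strand).
ID1: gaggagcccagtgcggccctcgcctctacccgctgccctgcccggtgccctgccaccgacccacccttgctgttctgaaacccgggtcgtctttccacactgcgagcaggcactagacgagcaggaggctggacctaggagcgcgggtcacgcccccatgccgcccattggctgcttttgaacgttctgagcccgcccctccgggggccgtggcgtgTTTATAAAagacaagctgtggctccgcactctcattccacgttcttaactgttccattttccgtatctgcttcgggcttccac
ID2: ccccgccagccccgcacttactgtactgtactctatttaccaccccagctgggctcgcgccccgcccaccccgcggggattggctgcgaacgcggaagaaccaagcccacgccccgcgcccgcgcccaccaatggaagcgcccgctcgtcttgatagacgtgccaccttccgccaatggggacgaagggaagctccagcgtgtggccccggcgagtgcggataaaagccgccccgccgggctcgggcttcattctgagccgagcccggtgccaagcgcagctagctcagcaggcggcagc
ID3: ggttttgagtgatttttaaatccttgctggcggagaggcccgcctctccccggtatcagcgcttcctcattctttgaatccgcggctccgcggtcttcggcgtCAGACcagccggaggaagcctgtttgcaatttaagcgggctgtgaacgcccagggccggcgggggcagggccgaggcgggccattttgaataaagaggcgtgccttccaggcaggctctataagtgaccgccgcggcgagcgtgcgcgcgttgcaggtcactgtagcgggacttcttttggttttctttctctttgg
The ID1 window held TATAAA on both strands in 1 overlapping stretch, and neither SMAD motif. The ID2 window held none of the 3 motifs, and the ID3 window held 1 CAGAC. The absence of a match says only that these letters are not in these 300 bases.

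SMAD6, an inhibitory SMAD that acts mainly on BMP receptors and on SMAD1, was at 2.96, 3.26 and 2.94 FPKM in siRBM8A cells, against 5.23, 5.87 and 5.50 FPKM in siNC cells. The groups were far apart relative to their spread, and replicate 2 was again the highest in each. The means were 3.05 ± 0.180 FPKM in siRBM8A cells and 5.53 ± 0.319 FPKM in siNC cells, a log2 fold change of -0.69 (SE 0.0944, adjusted p = 0.0160, limma). SMAD6 rested on 1266 fragments in siRBM8A cells and 2333 in siNC cells, since its 8563 exon bases offset its low FPKM. With a pseudocount of 0.1 its log2 fold change was -0.84. SMAD6 lies on chromosome 15 from 66702228 to 66782848 on the plus strand.

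SMAD7, the inhibitory SMAD that acts on both TGF-beta and BMP receptors, was at 7.03, 9.33 and 7.94 FPKM in siRBM8A cells, against 8.54, 9.18 and 8.45 FPKM in siNC cells. The highest of all 6 values and the lowest were both in siRBM8A libraries. The log2 fold change was -0.10 with a 95% interval of -0.38 to 0.17 (adjusted p = 0.619, limma). With the GC correction it was -0.20 and the adjusted p 0.0485. The ratio of SMAD7 to SMAD6 was 2.65 ± 0.250 in siRBM8A cells and 1.58 ± 0.0492 in siNC cells, from 2.37 to 2.86 in siRBM8A libraries and from 1.54 to 1.63 in siNC libraries.

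BAMBI, a transmembrane protein that resembles a type I receptor but has no kinase domain, was at 66.7, 71.0 and 64.7 FPKM in siRBM8A cells, against 83.4, 88.6 and 76.4 FPKM in siNC cells. The groups did not overlap, and the siRBM8A mean was 81.5% of the siNC mean. BAMBI did not pass the test (log2 fold change -0.29, 95% interval -0.52 to -0.06, adjusted p = 0.126, limma). With the replicate number as a block its adjusted p was 0.00654, and with the GC correction 0.00801. The promoter windows of SMAD6, which fell, and of BAMBI are shown to set them beside those of the ID genes, with the same motifs in capitals. The SMAD6 window is chr15:66701986-66702285 and the BAMBI window chr10:28677271-28677570, both on the plus strand.
SMAD6: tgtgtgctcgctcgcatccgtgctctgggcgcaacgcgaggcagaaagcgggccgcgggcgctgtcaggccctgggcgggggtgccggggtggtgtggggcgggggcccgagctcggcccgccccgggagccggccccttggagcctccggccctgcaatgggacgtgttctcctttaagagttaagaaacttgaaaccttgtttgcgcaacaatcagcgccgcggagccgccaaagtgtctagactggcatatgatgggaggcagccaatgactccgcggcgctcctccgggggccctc
BAMBI: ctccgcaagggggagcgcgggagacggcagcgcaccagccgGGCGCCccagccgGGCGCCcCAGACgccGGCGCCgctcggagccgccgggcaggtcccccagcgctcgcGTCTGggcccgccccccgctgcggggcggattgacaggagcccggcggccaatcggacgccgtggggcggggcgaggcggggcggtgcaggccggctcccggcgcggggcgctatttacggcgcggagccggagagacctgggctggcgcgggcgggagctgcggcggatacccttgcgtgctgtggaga
The SMAD6 window held none of the 3 motifs. The BAMBI window held 3 matches to GGCGCC and 2 to CAGAC. Among the windows not shown, a BMP4 window also held 2 matches to GGCGCC, and windows of BMP4, SMAD7 and ID4 held CAGAC. CRIM1, which rose, had no window. Whether these motifs have a part in the changes was not tested.

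Neither ligand gene passed the test. BMP2, a ligand that signals through the receptors BMPR1A and BMPR2, was at 4.17, 5.19 and 3.98 FPKM in siRBM8A cells, against 4.06, 4.41 and 3.67 FPKM in siNC cells. These values overlapped, with siRBM8A replicate 2 the highest, and the log2 fold change was 0.11 with a 95% interval of -0.18 to 0.39 (adjusted p = 0.619, limma). BMP4, a closely related ligand, was at 6.90, 6.10 and 6.02 FPKM in siRBM8A cells, against 6.15, 6.57 and 6.13 FPKM in siNC cells. Its log2 fold change was 0.01 with a 95% interval of -0.21 to 0.23 (adjusted p = 0.961, limma), and its sign turned in several alternatives. Because 1 was added to each FPKM before the log, the changes of low genes such as BMP2 are understated.

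CRIM1, a membrane-anchored protein with cysteine-rich repeats that binds BMPs and limits their delivery to the cell surface, was the one gene of the 10 that rose. It was at 19.9, 21.2 and 20.3 FPKM in siRBM8A cells, against 14.2, 14.7 and 15.1 FPKM in siNC cells. All siRBM8A values lay above all siNC values, and the spread within each group was small. The means were 20.5 ± 0.711 FPKM in siRBM8A cells and 14.7 ± 0.431 FPKM in siNC cells, a log2 fold change of 0.45 (SE 0.0860, adjusted p = 0.0348, limma). Of all tested genes, 931 had a higher log2 fold change. CRIM1 lies on chromosome 2 from 36355926 to 36551135 on the plus strand, with up to 17 exons in a transcript, and a gene on the opposite strand overlaps 2.49% of its exon bases. The ratio of CRIM1 to BMP4 was 3.24 ± 0.322 in siRBM8A cells and 2.34 ± 0.117 in siNC cells.

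**Figure D3:**
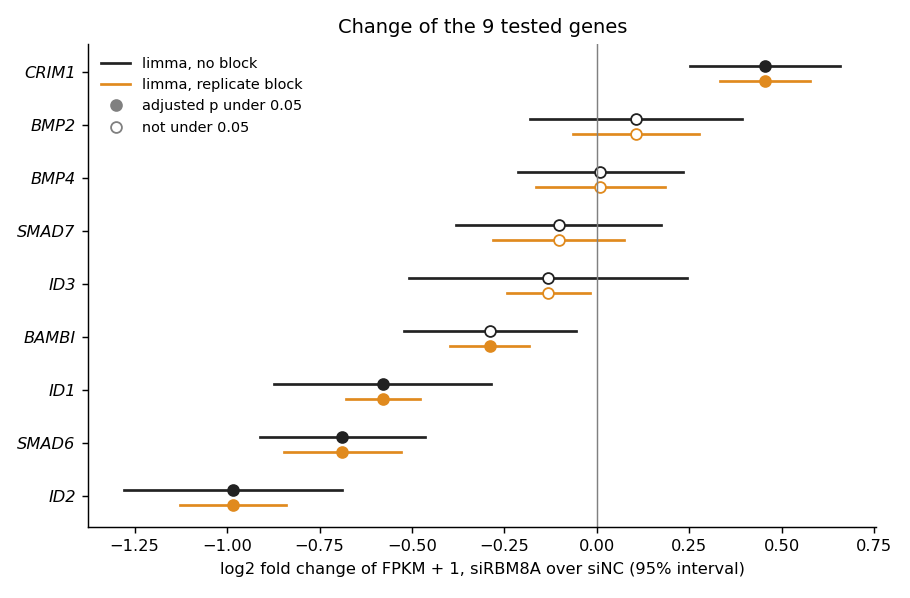
Log2 fold change of FPKM + 1 in siRBM8A over siNC cells with its 95% interval for the 9 tested genes, without a block (black) and with the replicate number as a block (orange); filled points have an adjusted p under 0.05. ID2, SMAD6 and ID1 lie at -0.98, -0.69 and -0.58 and CRIM1 at 0.45, filled in both fits, while BAMBI at -0.29 is filled with the block alone.

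In siNC cells the order of levels, in FPKM, was ID1, BAMBI, ID3, ID2, CRIM1, SMAD7, BMP4, SMAD6, BMP2 and ID4, and no 2 neighbours in this order overlapped between their 3 libraries. In siRBM8A cells BMP2, with 3.98 to 5.19 FPKM, stood above SMAD6, with 2.94 to 3.26 FPKM. BAMBI and ID3 overlapped in siRBM8A cells, with 64.7 to 71.0 FPKM for BAMBI and 47.1 to 65.8 FPKM for ID3. ID2 and CRIM1 also overlapped there, with 20.6 to 26.7 FPKM for ID2 and 19.9 to 21.2 FPKM for CRIM1.

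Set against the siNC library with the same replicate number, the siRBM8A level of ID1 was 67.3%, 66.8% and 66.5% in replicates 1, 2 and 3. The corresponding levels of SMAD6 were 56.7%, 55.6% and 53.4%, and those of ID2 were 52.2%, 51.5% and 45.2%. CRIM1 was at 139%, 145% and 135%, and BAMBI at 80.0%, 80.1% and 84.7%. The percentages of ID1 thus differed by less than 1 point between the numbers, although its FPKM differed more between the libraries of a group. With the replicate number as a block, the adjusted p of ID1 was 0.00159, and 5 of the 9 genes were called (55.6%), against 40.2% of all tested genes, so many genes throughout the table were called by that fit. With the GC correction, ID3, SMAD7 and BAMBI were called as well, which made 7 of 9 genes, against 31.9% of all tested genes. The block and the GC correction together also called 7 of the 9 genes, against 40.7% of all tested genes.

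The calls depended on which library was left out. Without siRBM8A replicate 2, limma called 4 of the 9 genes and 628 in the whole table, and without both replicate 2 libraries, a fit chosen after seeing the data, it called 4 of the 9 and 1827 in the table. With siRBM8A replicate 1 left out it called 2 of the 9 and 398 in the table, and with siNC replicate 2 left out 1 of the 9 and 132 in the table. With siRBM8A replicate 3 left out, limma called 0 of the 9 genes and 2 in the whole table, and 4 of the 9 had an unadjusted p under 0.05. With siNC replicate 1 left out, it called 0 of the 9 and 12 in the table, and 4 of the 9 had an unadjusted p under 0.05. With siNC replicate 3 left out, it called 0 of the 9 and 8 in the table. Of the 9, 5 then had an unadjusted p under 0.05, as in the fit of all 6 libraries. For unadjusted counts, here and below, the share of all tested genes is not given, so they are descriptive and measure no excess. In the fits without siRBM8A replicate 3, siNC replicate 1 or siNC replicate 3, the adjusted p of ID2 was 0.0957, 0.0733 and 0.0988 in that order. The ID2 log2 fold change stayed between -1.08 and -0.90 over all alternatives. SMAD6 had adjusted p of 0.116, 0.0796 and 0.111 in the same fits. ID1 had 0.181, 0.140 and 0.171 and CRIM1 had 0.160, 0.154 and 0.171. SMAD6 also lost its call without siNC replicate 2 (adjusted p = 0.0616), with log2 fold changes from -0.84 to -0.65 over the alternatives. ID1 and CRIM1 lost theirs in addition without siNC replicate 2 (adjusted p = 0.0987 for ID1 and 0.0879 for CRIM1) and without siRBM8A replicate 1 (0.0823 and 0.0607). ID1 was not called without the filter on low values (adjusted p = 0.132) or without the variance trend (0.0519). The log2 fold changes of ID1 stayed between -0.67 and -0.49 and those of CRIM1 between 0.43 and 0.51.

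**Figure D4:**
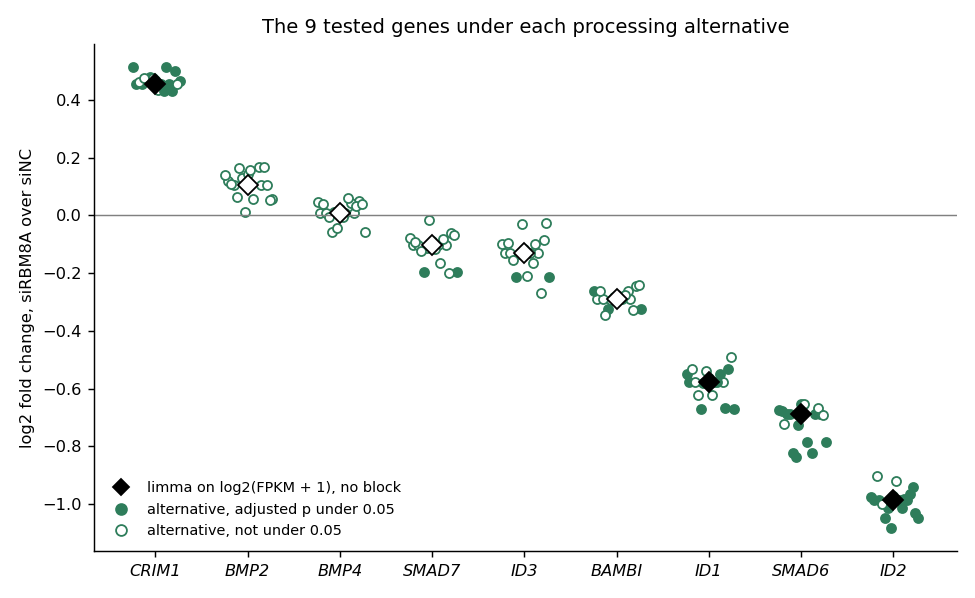
Log2 fold change of the 9 tested genes, siRBM8A over siNC, in limma on log2(FPKM + 1) without a block (diamonds) and under each processing alternative (circles); filled symbols have an adjusted p under 0.05. ID2, SMAD6, ID1 and BAMBI stay below 0 and CRIM1 above 0 under every alternative shown, while BMP4 lies on both sides of 0.

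Genes of the same pathways were described by 9 lists of 132 genes, of which 54 reached a mean of 1 FPKM. Of these 54, 3 rose and 5 fell (14.8%, against 5.59% of all tested genes). The lists were also chosen with earlier results known, so the shares of their genes are descriptive as well. Their median log2 fold change was -0.05, against -0.01 over all tested genes. With the replicate block 10 were higher and 17 lower, 27 of the 54 genes together, against 40.2% of all tested genes. Among 18 other BMP target genes 3 were tested, and 2 of these fell (66.7%, against 3.19% of all tested genes called lower). HES1, a transcriptional repressor and Notch target that BMP signals can also induce, fell (log2 fold change -0.54, SE 0.101, adjusted p = 0.0343, limma). It was at 29.6, 32.4 and 32.4 FPKM in siRBM8A cells, against 47.8, 48.8 and 42.0 FPKM in siNC cells. MSX2, a homeobox factor induced by BMPs in many embryonic tissues, was at 32.1, 38.4 and 31.0 FPKM in siRBM8A cells, against 49.8, 53.7 and 46.1 FPKM in siNC cells (log2 fold change -0.55, SE 0.118, adjusted p = 0.0466, limma). The HES1 and MSX2 means in siRBM8A cells were 68.1% and 67.8% of those in siNC cells, without overlap between the groups. Both lost their call without any 1 of the libraries other than siRBM8A replicate 2, with adjusted p up to 0.150 for HES1 and 0.187 for MSX2. They were also not called without the filter on low values (adjusted p = 0.0658 for HES1 and 0.0989 for MSX2), nor was MSX2 without the variance trend (0.0516). ATOH8, a BMP-induced factor named here after its values were seen, was below the filter, with 44 fragments in siRBM8A cells and 129 in siNC cells. Its FPKM were 0.0969, 0.213 and 0.141 in siRBM8A cells, against 0.317, 0.526 and 0.453 in siNC cells, without overlap (adjusted p = 0.166, limma without the filter). TBX2, also below the filter, was higher without overlap, with 27 fragments in siRBM8A cells and 13 in siNC cells (adjusted p = 0.412, limma without the filter). The groups overlapped for every other gene of this list below the filter. SNAI1, the other tested gene of the list, did not pass (log2 fold change 0.15, adjusted p = 0.578, limma).

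Upstream of the target genes, the share of receptors called was 9.09%, against 5.59% of all tested genes. Of 11 tested receptors and co-receptors 1 fell and the others did not pass, and their median log2 fold change was -0.09. Among the 11, 4 had an unadjusted p under 0.05, and limma-voom on the recovered fragments called 2. The one that fell was TGFBR3, the co-receptor betaglycan, at 1.49, 1.53 and 1.23 FPKM in siRBM8A cells, against 2.56, 2.51 and 2.75 FPKM in siNC cells (log2 fold change -0.58, SE 0.110, adjusted p = 0.0352, limma). With the block 4 of the 11 receptors were called (36.4%), 1 higher and 3 lower, against 40.2% of all tested genes. Of the 4 tested receptor-regulated and common SMADs limma called 0, 0 had an unadjusted p under 0.05, and limma-voom on the recovered fragments called 0. The one with the smallest p among them was SMAD5, at 8.48 ± 2.82 FPKM in siRBM8A cells and 10.7 ± 1.99 FPKM in siNC cells (adjusted p = 0.422, and 0.0332 with the block). Of 3 tested secreted antagonists limma called 0, 1 had an unadjusted p under 0.05, and limma-voom called 0. All 3 were called lower with the block, a fit that called 40.2% of all tested genes in either direction. TWSG1, which binds BMPs outside the cell, was at 6.34 ± 0.525 FPKM in siRBM8A cells and 8.64 ± 0.822 FPKM in siNC cells (adjusted p = 0.0787, limma).

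Among the other BMP and GDF ligands 3 of 20 were tested and 10 were at 0 in all libraries. Limma called 0 of the 3, limma-voom called 1, and 1 had an unadjusted p under 0.05. GDF15, a stress-induced member of the TGF-beta superfamily, was at 491 ± 96.2 FPKM in siRBM8A cells and 338 ± 46.6 FPKM in siNC cells, without overlap (adjusted p = 0.108, and 0.00291 with the block). TGFB1 was the 1 tested gene among 11 TGF-beta and activin ligands, at 49.7 ± 5.74 FPKM in siRBM8A cells and 44.2 ± 4.53 FPKM in siNC cells (adjusted p = 0.449, and 0.0292 with the block). Of 3 tested ID binding partners limma called 0, limma-voom called 1, and 1 had an unadjusted p under 0.05. TCF3, the gene of the E proteins E12 and E47 that ID proteins sequester, was at 27.8, 39.1 and 28.5 FPKM in siRBM8A cells, against 17.6, 23.7 and 19.8 FPKM in siNC cells. These TCF3 values did not overlap, with a log2 fold change of 0.61 and an adjusted p of 0.0799 in limma, and 0.00224 with the block. The other listed E proteins did not rise. TCF12 had a log2 fold change of -0.01 (adjusted p = 0.965, limma). TCF4, below the filter, was at 0.709, 0.465 and 0.523 FPKM in siRBM8A cells, against 1.18, 0.910 and 1.10 FPKM in siNC cells. It was thus lower without overlap (adjusted p = 0.238, limma without the filter).

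Of 17 tested intracellular regulators 1 rose and 1 fell, which is 11.8%, against 5.59% of all tested genes. With the block 3 were higher and 6 lower, 52.9% of the 17, against 40.2% of all tested genes. SKI, a co-repressor that binds SMAD complexes, rose to 29.2 ± 1.48 FPKM in siRBM8A cells, against 20.1 ± 1.13 FPKM in siNC cells (log2 fold change 0.52, SE 0.0935, adjusted p = 0.0310, limma). FKBP1A, the immunophilin that holds type I receptors inactive, fell to 89.1 ± 10.5 FPKM in siRBM8A cells, against 132 ± 6.51 FPKM in siNC cells (log2 fold change -0.57, SE 0.115, adjusted p = 0.0412, limma), and other genes overlap 9.51% of its exon bases on its own strand. The adjusted p of FKBP1A was 0.0540 after scaling to equal FPKM sums. Without the filter on low values the adjusted p was 0.0982 for FKBP1A, 0.0958 for TGFBR3 and 0.107 for ITGB6, so these calls were lost too. Of 9 tested TGF-beta target genes 2 rose and 1 fell (33.3%, against 5.59% of all tested genes). With the block 3 were higher and 2 lower (55.6%, against 40.2% of all tested genes). The TGF-beta target genes thus did not share a direction. CDKN2B, an inhibitor of cyclin-dependent kinases, was at 20.1, 19.8 and 18.0 FPKM in siRBM8A cells, against 9.02, 9.02 and 8.76 FPKM in siNC cells (log2 fold change 1.03, SE 0.0893, adjusted p = 0.00860, limma). CTGF, a matricellular protein gene that YAP also induces, was higher in siRBM8A cells (log2 fold change 1.92) and was called under all 18 alternatives. ITGB6, an integrin subunit that activates latent TGF-beta, was at 1.89 ± 0.430 FPKM in siRBM8A cells and 3.74 ± 0.377 FPKM in siNC cells (log2 fold change -0.72, SE 0.143, adjusted p = 0.0386, limma), and a gene on its own strand overlaps 20.6% of its exon bases. Without siRBM8A replicate 3, siNC replicate 1 or siNC replicate 3, CTGF alone of the called genes on these lists kept its call. Over those fits the highest adjusted p were 0.182 for TGFBR3, 0.176 for SKI, 0.196 for FKBP1A, 0.0909 for CDKN2B and 0.176 for ITGB6. Calls were also lost without siRBM8A replicate 1 for TGFBR3 (adjusted p = 0.0610), SKI (0.0560) and FKBP1A (0.0629). Of 18 alternatives CDKN2B was called in 15, SKI in 13 and FKBP1A in 11. Of the 17 alternatives that hold a value for them, TGFBR3 was called in 11 and ITGB6 in 12.

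**Figure D5:**
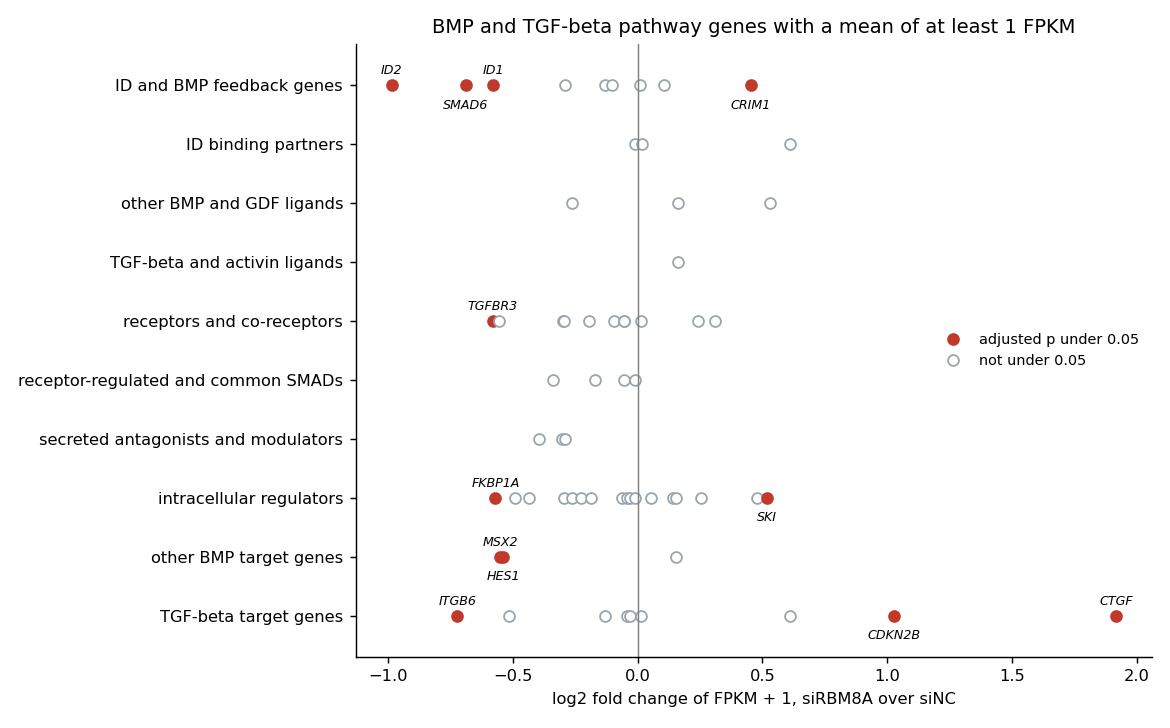
Log2 fold change of FPKM + 1, siRBM8A over siNC, of every tested gene among the ID and BMP feedback genes and in 9 lists of BMP and TGF-beta pathway genes; red filled points, with names, have an adjusted p under 0.05. The 2 called BMP target genes MSX2 and HES1 lie at -0.55 and -0.54 beside ID1 at -0.58, and the TGF-beta target genes lie from -0.72 for ITGB6 to 1.92 for CTGF.

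Over the 6 libraries, the 3 genes whose log2(FPKM + 1) was most like that of ID1, among 7436 other genes averaging 5 FPKM or more, were TOMM34, CPPED1 and FOXQ1, each with a Pearson r of 0.996. TOMM34 encodes a chaperone-binding protein of mitochondrial import, CPPED1 a phosphatase and FOXQ1 a forkhead transcription factor. None of the 3 was called by limma without a block, with adjusted p of 0.0590 for TOMM34, 0.0624 for CPPED1 and 0.0601 for FOXQ1. With the replicate block all 3 were called, with adjusted p of 0.00248, 0.00475 and 0.00213 in the same order. FOXQ1 was at 115, 137 and 118 FPKM in siRBM8A cells, against 168, 194 and 160 FPKM in siNC cells. Within the 9 tested genes the r with ID1 was 0.971 for BAMBI, 0.966 for SMAD6, 0.859 for ID2 and -0.877 for CRIM1. These r describe 6 points in 2 separate groups, which share their libraries and the difference between groups, and they carry no test.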

How the data were processed

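The authors deposited 1 table of FPKM, with 1 column per library. HISAT2, StringTie and GRCh38 are listed in the submitters' processing notes without version, role or order. Strand setting: not given in the sources used here. All 58735 gene identifiers matched GENCODE 29 (Ensembl 94), which gave exon lengths, overlaps and coordinates. Multiplied by exon length, the FPKM of a library came in equal steps, so that fragments could be recovered (100% of values whole, tolerance 0.001 fragments), and these gave the depth.

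Groups came from the titles. limma 3.58.1 in R 4.3.3 was run on log2(FPKM + 1) with the variance trend, two-sided, on the 12678 genes averaging 1 FPKM or more, with Benjamini-Hochberg adjustment over all of them. SE and 95% intervals come from that fit. On simulated data with libraries drawn independently, its calls and directions of change were checked, and its SE and intervals were not. The tables and plots were made with Python 3.11.15, pandas 2.3.3, numpy 2.4.6, scipy 1.17.1 and matplotlib 3.10.9. The 10 genes and the lists were chosen with earlier results of these data known. Named from the lists were all called genes or, in a list without any, the gene with the smallest p. ATOH8, TBX2, SNAI1, TCF12 and TCF4 were named in addition, after their values were seen. The 3 genes most like ID1 were named by Pearson r.

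Over the tested genes, libraries of the same number deviated together from their group means (r = 0.507 for replicate 1, 0.663 for replicate 2 and 0.102 for replicate 3). Each r exceeded 0.1, and the numbers were therefore taken to pair the libraries. The labels name no shared day or passage, so the pairing is inferred from the values. It is weak for replicate 3: siRBM8A replicate 3 correlated more with siNC replicate 1 (0.187), and siNC replicate 3 with siRBM8A replicate 1 (0.258). These unlike pairs also exceeded 0.1, so that cut alone does not single out the pairs of the same number. The main test has no block. The alternatives were the pseudocount, the filter, scaling, the variance model, the block, a loess GC correction (span 0.3), limma-voom on the fragments and leaving out each library. The voom fit with the block and leaving out both replicate 2 libraries were chosen after seeing the data.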

Additional observations from a re-analysis of the deposited data

How the results depend on the processing

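Of the 9 tested genes, 4 were called without a block, against 5.59% of all tested genes. The GC correction called 7, against 31.9%, and the replicate block and GC correction together called 7, against 40.7%. Leaving out 1 library gave 0 to 4. The 709 calls in the whole table became 268 without a filter, 5096 with the replicate block, 4049 with the GC correction, 5155 with both, 6145 in limma-voom with the block and 1827 without both replicate 2 libraries, and 2 to 628 when 1 library was left out. The cause of these moves was not tested. RBM8A had log2 fold changes from -2.05 to -1.83 when 1 library was left out. The sign of BMP4 turned with the GC correction (-0.0584, also with the block) and in 3 of the fits that left out 1 library, which gave -0.0445 to 0.0404 (-0.0445 with siRBM8A replicate 1 left out, -0.00414 with siNC replicate 1 and -0.00527 with siNC replicate 3). The adjusted p of BMP4 was 0.553 to 0.991 over the alternatives. The signs of the other 8 tested genes did not turn in any alternative run. Besides BAMBI, the block changed no other call among the 9 genes. BMP2 and SMAD6 have no value at a minimum of 5 FPKM. At this depth ID4 was not detectable.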
